A study of Mus musculus with 12 samples.

Results

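Primary microglia carrying the R47H substitution on both *Trem2* alleles (*Trem2* R47H knock-in, KI) were compared with wild-type (WT) microglia after treatment of both with IL-4, using 6 of the 12 RNA-seq libraries of the study. The members were chosen by treatment and genotype as the labels give them: KI cultures T15, T22 and T32 and WT cultures T13, T33 and T43, each treated with 20 ng/ml IL-4 for 48 h. All mice had the C57BL/6J background. The other 6 libraries come from the same 6 cultures without treatment. The study's methods describe cultures from cortex and hippocampus of newborn pups, in which microglia were isolated from mixed glia by mild trypsinization. In the KI line, pups of a litter were cultured separately and genotyped afterwards, with WT littermates as the controls. The KI allele is also known to lower *Trem2* expression through altered splicing, so that the substitution and the loss of transcript come together in these mice.

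TREM2 is a lipid-binding receptor of microglia and other myeloid cells. It signals through the adaptor TYROBP (DAP12), whose phosphorylated cytoplasmic tail recruits the kinase SYK and, from there, phosphoinositide 3-kinases and phospholipase C gamma. IL-4 binds a receptor that activates JAK kinases and the transcription factor STAT6, and turns macrophages and microglia to an alternatively activated, anti-inflammatory state marked by genes such as *Retnla* and *Chil3*. The comparison asks which of these transcripts differ between KI and WT microglia that have both received the cytokine.

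Values are TPM, transcript abundances scaled for transcript length and to the same total of 1000000 in every library. Differences are KI minus WT on log2(TPM + 1), tested with limma over the 11307 genes whose mean on that scale was above 1.5 in the 6 libraries, with Benjamini-Hochberg adjusted p-values and a threshold of 0.05. Where 3 values are listed, they are in the order T13, T33, T43 for WT and T15, T22, T32 for KI. A gene is said not to overlap where all 3 KI values lie on 1 side of all 3 WT values. Between 21942 and 23945 genes were above 0 per library.

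The cultures did not hold the same amounts of RNA from other glia, and T15 stood apart. The 25 astrocyte markers summed to 1247, 448 and 401 TPM in WT and 6793, 1587 and 1197 TPM in KI. *Gfap*, the astrocyte intermediate filament, chosen here after its values were seen, stood at 368, 98.6 and 104 TPM in WT and 2157, 271 and 351 TPM in KI. Of the 25 markers, 22 had their highest value of the 6 libraries in KI T15, and 21 had their highest WT value in T13. The 28 microglial markers summed to 45729, 36338 and 39047 TPM in WT and 24420.4, 32199 and 32140.3 TPM in KI, so that the KI sums lay below all WT sums, with T15 lowest. All libraries carried the microglial transcript *Csf1r*, the receptor for the survival factor CSF1, at 951, 677 and 818 TPM in WT and 370.3, 447 and 640.0 TPM in KI. Contractile and mural cell markers summed to 412, 338 and 706 TPM in WT and 1070.3, 1795 and 1014 TPM in KI, fibroblast and meningeal markers to 513, 346 and 765 TPM in WT and 1674, 1129 and 651 TPM in KI and oligodendrocyte lineage markers to 152, 82.6 and 90.9 TPM in WT and 377, 211 and 145 TPM in KI. The contractile sums of the KI libraries lay above all WT sums, while the fibroblast and oligodendrocyte lineage sums overlapped. Endothelial and neuronal sums were at most 67.5 TPM in any library. Defining markers of other cells were at or near 0 in all 6 libraries, namely *Mog* (oligodendrocytes), *Cldn5* (endothelium), *Snap25* (neurons) and *Myh11* (smooth muscle).

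**Figure D1:**
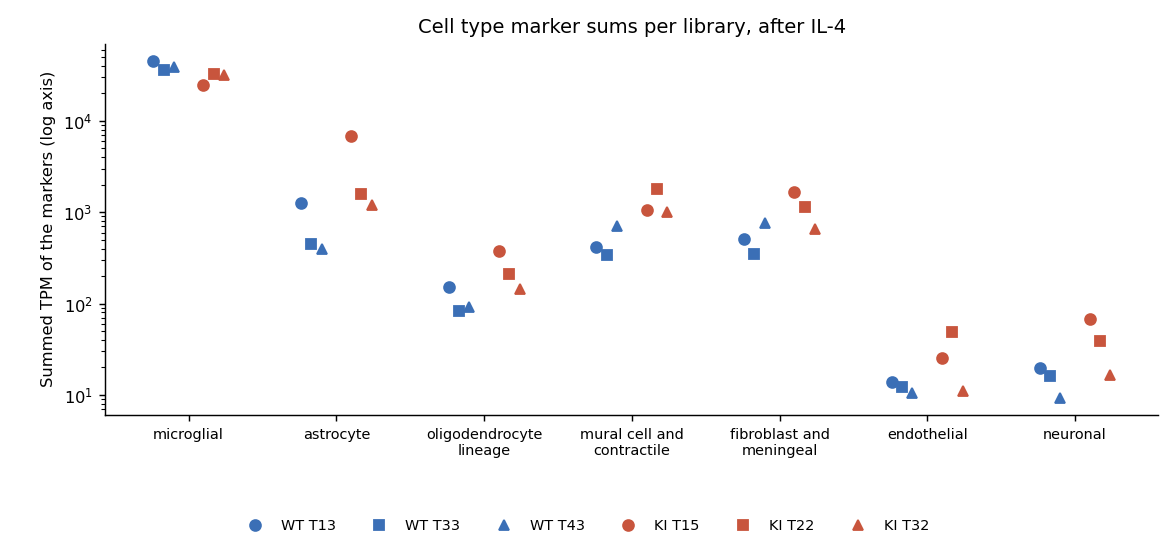
Summed TPM of the markers of 7 cell types (log axis) in each of the 6 IL-4-treated libraries, WT in blue and KI in red, 1 symbol per culture. KI T15 holds the highest astrocyte sum, 6793 TPM, and the lowest microglial sum, 24420.4 TPM.

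*Trem2* (ENSMUSG00000023992, chr17:48346401-48354147, GRCm38) had 1190.4, 1550.0 and 1312 TPM in WT and 428, 598 and 634 TPM in KI after IL-4. All KI values lay below all WT values, and the KI mean of 553 ± 110.0 TPM (SD, n = 3) was 40.9% of the WT mean of 1351 ± 183 TPM (SD, n = 3). The log2 difference was -1.30 (SE 0.19, adjusted p = 0.073), which did not pass the threshold over all genes. It passed when only the 8161 genes with a mean above 3 were tested (adjusted p = 0.046) and when KI T32 was left out (adjusted p = 0.034). Without cultures T13 and T15 it was -1.21 (adjusted p = 0.051). Its untreated values were 1328, 1886 and 1538 TPM in WT and 325, 769.9 and 602 TPM in KI. In bulk RNA, fewer microglia in a culture and less *Trem2* RNA per microglial cell cannot be told apart.

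**Figure D2:**
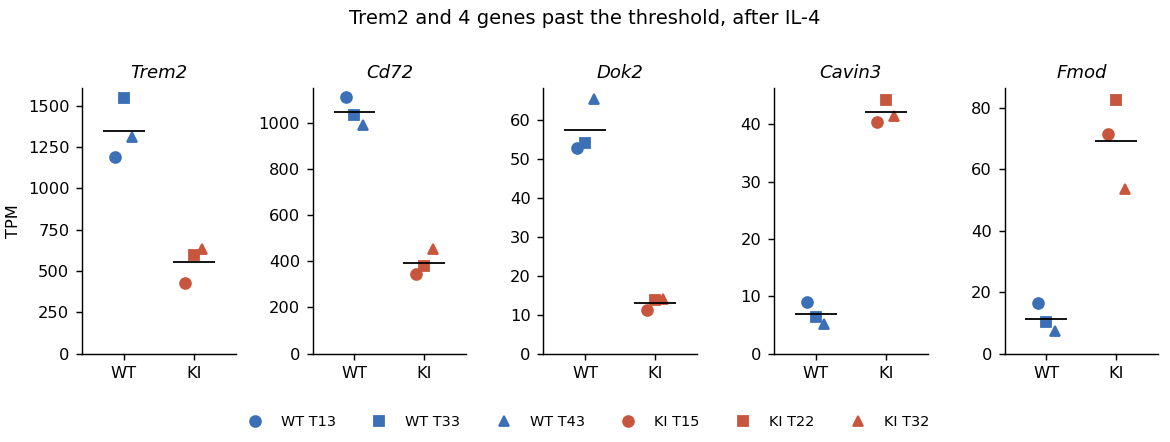
TPM of *Trem2* and of 4 genes past the threshold in the 6 IL-4-treated libraries, with WT in blue, KI in red, a symbol for each culture and a bar at the mean of 3 libraries. The groups do not overlap in any of the 5 panels, and KI T15, with the highest astrocyte marker sum, lies within 1.5 times of the other KI cultures in every panel.

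Across all 11307 genes, 2 were lower in KI and 3 were higher, which is 0.0177% and 0.0265% of the genes tested. The genes that passed were *Cd72* and *Dok2* on the lower side and *Cavin3*, *Fmod* and *Gm11966* on the higher side. Far more genes were separated than passed. Separation alone is a weak criterion, because with 3 libraries against 3 the smallest p of an exact permutation test is 0.1. There were 644 genes without overlap and lower in KI (5.70%) and 1452 without overlap and higher in KI (12.8%). This split depended on the scaling. Quantile normalization gave 1175 lower and 963 higher, and median-ratio scaling 1031 lower and 1094 higher, while the median log2 difference of all genes moved from 0.09 to -0.07 and to -0.03. The list medians given below kept their sign under both scalings, except that of the oligodendrocyte lineage markers. Leaving out KI T32 raised the number past the threshold to 18 lower and 67 higher, whereas leaving out KI T22 gave 0 lower and 1 higher. At an unadjusted p under 0.05 there were 395 lower and 1123 higher genes.

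**Figure D3:**
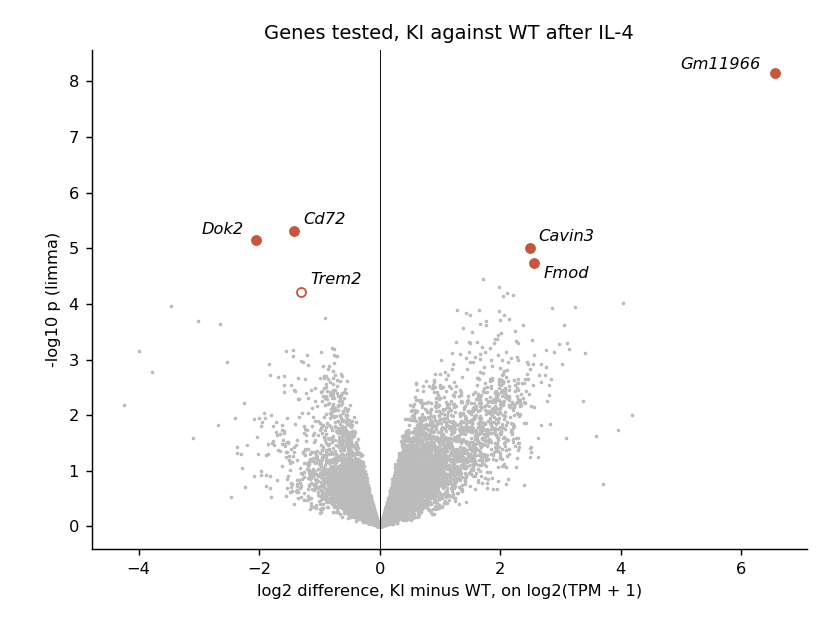
Each point is 1 of 11307 genes, with the log2 difference KI minus WT after IL-4 on the x axis and -log10 of the unadjusted limma p on the y axis. Filled red points are the 5 genes past the threshold, and the open circle is *Trem2* at -1.30.

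*Cd72* (ENSMUSG00000028459, chr4:43446462-43454628), a C-type lectin of B cells and macrophages with an inhibitory cytoplasmic motif, fell in KI. It had 1111, 1032 and 992 TPM in WT and 345, 381 and 454 TPM in KI, means of 1045 ± 60.5 and 393 ± 55.7 TPM (SD, n = 3 each), and a log2 difference of -1.41 (SE 0.15, adjusted p = 0.027). The replicates of each genotype were close together and far from the other genotype. It was the only gene lower in KI that also passed without cultures T13 and T15 (adjusted p = 0.047) and in the fit to all 12 libraries with the culture as a replicate block (adjusted p = 0.0022). The call was kept in 2 of the 6 fits that left out 1 library and was lost without KI T22, WT T13, WT T33 or WT T43 (adjusted p from 0.0552 to 0.198), and with the astrocyte or microglial score as a covariate (adjusted p = 0.217 and 0.21), with log2 differences between -1.52 and -1.30 in these fits. It was also lost with no expression filter (adjusted p = 0.143) and without the variance trend (adjusted p = 0.171). Untreated values were 675, 795 and 657 TPM in WT and 251, 279 and 229.5 TPM in KI.

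*Dok2* (ENSMUSG00000022102, chr14:70766036-70778495), a docking protein that restrains signalling downstream of tyrosine kinases in blood cells, was the other gene that fell. Its values of 52.8, 54 and 65.4 TPM in WT and 11.3, 13.8 and 14.1 TPM in KI put the KI mean at 22.8% of WT, with a log2 difference of -2.05 (SE 0.23, adjusted p = 0.027). Every KI library lay under 15 TPM and every WT library above 52 TPM. With the replicate block over 12 libraries the adjusted p was 0.314, where the untreated *Dok2* values, 15.6, 38.2 and 20.6 TPM in WT and 12.7, 3.54 and 0.0418 TPM in KI, enter the estimate of the spread. The *Dok2* call was also lost without KI T22, WT T13, WT T33 or WT T43, and without cultures T13 and T15. Either marker score as a covariate, no expression filter and no variance trend removed it as well.

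The other genes among the 10 lowest p-values on that side, taken from genes with a mean above 3 and no overlap, did not pass. They were *Evi2a* -0.91 (adjusted p = 0.088), *Slc37a2*, a sugar phosphate exchanger, -0.79 (adjusted p = 0.134), *Dab2*, a clathrin adaptor, -0.77 (adjusted p = 0.134), and *Syngr2* -0.97 (adjusted p = 0.134), all as log2 differences. Larger differences were seen for *Clec12a*, an inhibitory C-type lectin receptor, with 70.7, 85.6 and 87.6 TPM in WT and 22.5, 23.6 and 47 TPM in KI and a log2 difference of -1.44 (adjusted p = 0.134), and for *Cfp*, the complement regulator properdin, with 219, 125 and 174 TPM in WT and 34.9, 75.8 and 68.4 TPM in KI and -1.56 (adjusted p = 0.134). *Gatd1* had 29.3, 33.8 and 35.4 TPM in WT and 12.3, 15.9 and 13.1 TPM in KI, a log2 difference of -1.20 (adjusted p = 0.134). In *Clec12a*, KI T32 lay closest to WT at 47 TPM, and in *Cfp* KI T15 lay lowest at 34.9 TPM.

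*Cavin3* (ENSMUSG00000037060, chr7:105480083-105482300), a coat protein of caveolae, rose in KI from 6.84 ± 1.95 to 42.1 ± 2 TPM (SD, n = 3 each), 6.15-fold. Its values were 8.96, 6.44 and 5.12 TPM in WT and 40.4, 44.3 and 41.5 TPM in KI, and the log2 difference was 2.49 (SE 0.29, adjusted p = 0.028). *Fmod* (ENSMUSG00000041559, chr1:134037254-134048277), which encodes fibromodulin, a collagen-binding proteoglycan, rose 6.13-fold. It had 16.4, 10.2 and 7.2 TPM in WT and 71.5, 82.6 and 53.5 TPM in KI, a log2 difference of 2.56 (SE 0.32, adjusted p = 0.042). KI T15 was not the highest KI library for either gene. Without KI T15, adjusted p was 0.09 for *Cavin3* and 0.146 for *Fmod*, with log2 differences of 2.51 and 2.53. With the astrocyte marker score as a covariate both kept their direction, with adjusted p of 0.217 and 0.227.

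*Gm11966* (ENSMUSG00000080904, chr11:5818497-5818583) is annotated as a processed pseudogene of 87 bases. It was listed at 0 in all WT libraries after IL-4 and at 96.2, 93.8 and 88.6 TPM in KI, and had the smallest adjusted p of the comparison, 7.9e-05. Its untreated values, 0, 154 and 0 TPM in WT and 70.5, 94.9 and 0 TPM in KI, included both 0 and values above 70 TPM within each genotype. A short pseudogene shares sequence with its parent gene, so that Salmon could divide reads between them, and its value is uncertain.

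The other higher genes with the smallest p-values did not pass over all genes. *Myl9*, the regulatory light chain of smooth muscle and non-muscle myosin, had 51.5, 36.1 and 51.1 TPM in WT and 149.7, 197 and 119 TPM in KI, a log2 difference of 1.71 (adjusted p = 0.068). *Tm4sf1*, a tetraspanin-like membrane protein, had 34.8, 20.2 and 22.8 TPM in WT and 99.9, 137 and 77.2 TPM in KI, a log2 difference of 1.97 (adjusted p = 0.073). *Hbegf*, a ligand of the EGF receptor, had 26.3, 20.9 and 18.7 TPM in WT and 84.6, 156 and 68.9 TPM in KI, a log2 difference of 2.11 (adjusted p = 0.073). In these 3 genes KI T22 was the highest library, as it was for the contractile marker sum. *Myl9* and *Tm4sf1* are themselves part of that sum, so for them the match is not a separate observation. *Cd24a* 2.22 (adjusted p = 0.073), *Crip2* 2.04 (adjusted p = 0.073), *Tceal3* 2.86 (adjusted p = 0.084) and *Vim*, the intermediate filament vimentin, 1.28 (adjusted p = 0.084) made up the remainder. *Tm4sf1* passed in the 12-library fit with the replicate block (adjusted p = 0.024).

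Astrocyte and contractile markers lay mostly above WT in KI, whereas fibroblast and oligodendrocyte lineage markers were divided. All 18 astrocyte markers tested had positive log2 differences, with a median of 1.89 against 0.09 for all genes. Of these, 5 did not overlap, 27.8% against 12.8%, and the number was again 5 without KI T15, where the background was 17.3% higher and 10.4% lower. The transcription factor *Sox9* had 24.2, 9.77 and 3.95 TPM in WT and 148, 65.9 and 40.5 TPM in KI, a log2 difference of 2.76 (adjusted p = 0.152), and the water channel *Aqp4* had 49.2, 8.48 and 9.8 TPM in WT and 348, 44.4 and 37.7 TPM in KI, a log2 difference of 2.30 (adjusted p = 0.295). KI T15 was more than 2 times the other KI libraries in both genes. No astrocyte marker passed the threshold in the main fit. *Gfap* passed, higher in KI, when cultures T13 and T15 were left out. *Clu*, named after its values were seen, passed without KI T32, with a log2 difference of 2.56 (limma, adjusted p = 0.035). Contractile markers had a median of 1.36 over 9 tested, with 4 not overlapping and higher, 44.4% against 12.8%. *Acta2*, smooth muscle actin, had 153, 128 and 233 TPM in WT and 349, 789.8 and 485 TPM in KI, a log2 difference of 1.62 (adjusted p = 0.121). The 9 fibroblast and meningeal markers tested had 5 negative differences and a median of -0.19, with 1 higher without overlap (11.1% against 12.8%). *Sparc*, a matrix glycoprotein in the fibroblast list that microglia can also express, had 299.7, 233 and 258 TPM in WT and 1346, 1012 and 519 TPM in KI, a log2 difference of 1.76 (adjusted p = 0.089), while *Col1a1* had 7.22, 6.25 and 85.9 TPM in WT and 28.8, 4.61 and 8.5 TPM in KI, with its highest value in WT T43. Of 5 oligodendrocyte lineage markers tested, *Olig1* and *Olig2* did not overlap, with log2 differences of 2.67 and 2.25, while *Cspg4* had -1.30 and *Mbp* 0.07, and the list median was 0.07, which was -0.06 under quantile normalization and -0.05 under median-ratio scaling. With the astrocyte score or the microglial score as a covariate, the calls were 0 lower and 1 higher, the latter being *Gm11966*. The part of other cells' RNA in the higher values of *Cavin3*, *Fmod* and the genes listed with them was otherwise not tested.

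Promoter sequences are shown for 4 of the genes named here, because they hold the letters of motifs bound by PU.1 (the myeloid factor encoded by *Spi1*) or STAT6. *Cd72* passed the threshold, *Cd53* and *Itgax* did not overlap with KI lower, and *Retnla* is an IL-4-induced gene whose values spread widely between cultures. They were picked for holding a motif, and the windows of *Trem2*, *Ap1b1*, *Stat6*, *Clec12a* and *Cfp* hold neither. The windows are from RefSeq (GRCm38.p6), 250 bases before to 50 bases after the start of the gene. Capitals mark GAGGAAGT, which is a PU.1-type site, or its reverse complement, and TTCNNNNGAA, the palindromic STAT6-type site. No window has the motifs overlapping.
Cd72 (chr4:43454577-43454876, minus strand): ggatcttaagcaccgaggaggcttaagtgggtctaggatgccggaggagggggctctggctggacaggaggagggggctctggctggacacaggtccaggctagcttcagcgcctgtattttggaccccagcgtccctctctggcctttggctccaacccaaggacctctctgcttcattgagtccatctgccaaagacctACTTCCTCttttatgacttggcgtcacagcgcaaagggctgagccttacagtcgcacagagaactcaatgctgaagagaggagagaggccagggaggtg
Cd53 (chr3:106790100-106790399, minus strand): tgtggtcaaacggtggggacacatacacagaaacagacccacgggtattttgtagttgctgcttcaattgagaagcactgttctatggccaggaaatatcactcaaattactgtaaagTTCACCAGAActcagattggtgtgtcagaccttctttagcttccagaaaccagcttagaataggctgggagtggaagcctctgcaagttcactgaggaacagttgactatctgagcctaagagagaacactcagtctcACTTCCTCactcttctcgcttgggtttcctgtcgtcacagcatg
Itgax (chr7:128129300-128129599, plus strand): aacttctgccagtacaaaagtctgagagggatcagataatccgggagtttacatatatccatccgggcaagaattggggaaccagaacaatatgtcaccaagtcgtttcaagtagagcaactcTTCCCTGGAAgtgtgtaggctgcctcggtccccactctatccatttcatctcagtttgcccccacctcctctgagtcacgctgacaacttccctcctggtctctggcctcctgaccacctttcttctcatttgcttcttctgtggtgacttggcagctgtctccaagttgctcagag
Retnla (chr16:48842359-48842658, plus strand): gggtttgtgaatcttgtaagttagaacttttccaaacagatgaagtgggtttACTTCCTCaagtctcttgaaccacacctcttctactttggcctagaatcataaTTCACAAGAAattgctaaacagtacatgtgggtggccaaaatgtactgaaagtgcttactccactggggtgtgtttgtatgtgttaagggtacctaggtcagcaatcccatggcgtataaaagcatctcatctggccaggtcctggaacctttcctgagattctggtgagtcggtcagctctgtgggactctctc

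The *Cd53* and *Retnla* windows hold both motifs, the *Cd72* window only the PU.1-type letters and the *Itgax* window only the STAT6-type letters. GAGGAAGT occurs, on either strand, in 3.20% of all 32851 promoter windows and in 3.24% of the 10999 windows of the genes tested. Among 611 windows of genes that did not overlap with KI lower it occurs in 8.18%, and among 1439 windows of genes with KI higher in 2.08%. Under quantile normalization the share on the lower side is 5.80% and under median-ratio scaling 6.60%. It also occurs in 3 of 24 windows of the microglial markers, 12.5%. TTCNNNNGAA occurs in 6.95% of all windows, 5.34% of those of the genes tested, 6.55% on the lower side and 6.25% on the higher side. These shares are descriptions of letters in a window and were not tested.

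The transcripts of TREM2 and its signalling partners lay mostly below WT in KI. Of 20 members tested, 19 had negative log2 differences and 10 did not overlap with KI lower, 50% against 5.70% of all genes, with a median of -0.48 against 0.09. None passed the threshold. *Tyrobp* had 6507, 6677 and 6345 TPM in WT and 3444, 5566 and 5048 TPM in KI and a log2 difference of -0.50 (SE 0.21, adjusted p = 0.343). KI T15 lay lowest for this adaptor. *Lat2*, an adaptor downstream of SYK-type kinases, had 247, 215 and 201 TPM in WT and 77.7, 113 and 166 TPM in KI, a log2 difference of -0.95 (adjusted p = 0.182). *Pik3ap1* (BCAP), which brings phosphoinositide 3-kinase to receptors, had 132, 139 and 119 TPM in WT and 80.7, 57.4 and 80.4 TPM in KI, a log2 difference of -0.84 (adjusted p = 0.148). *Pik3cg*, a catalytic subunit of that kinase, had 20.5, 14.7 and 19.5 TPM in WT and 10.4, 14.1 and 8.34 TPM in KI, a log2 difference of -0.70 (adjusted p = 0.378). In each of these 3 genes the groups did not overlap, although *Pik3cg* in KI T22 came within 1 TPM of the lowest WT library.

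Other parts of the pathway overlapped. *Syk* had 19.6, 29.1 and 24.3 TPM in WT and 14.9, 17.7 and 24.8 TPM in KI, *Plcg2* had 45.1, 39.1 and 38.8 TPM in WT and 29.3, 37.1 and 41.3 TPM in KI, and the TREM2 ligand *Apoe*, chosen like *Syk* after its values were seen, had 38808, 36456 and 41165 TPM in WT and 26959, 31091 and 42843 TPM in KI. In all 3 genes KI T32 lay within the WT range or above it, and KI T15 was the lowest library. *Spi1*, encoding PU.1, had 291, 298 and 315 TPM in WT and 164, 198 and 312 TPM in KI and a log2 difference of -0.47 (adjusted p = 0.399), with KI T32 at the WT level. The microglial markers as a list had 24 negative of 26 tested, 9 without overlap and lower (34.6% against 5.70%), or 13 under median-ratio scaling, and a median of -0.45. *Csf1r* had a log2 difference of -0.77 (SE 0.22, adjusted p = 0.189), *Itgam*, an integrin subunit, -0.88 (adjusted p = 0.168), *Ly86* -0.96 (adjusted p = 0.177) and *Gpr34* -1.18 (adjusted p = 0.404). With the microglial score as a covariate, the log2 difference of *Trem2* was -1.40 (adjusted p = 0.292), and with the astrocyte score it was -0.97 (adjusted p = 0.255). For the lists the part of the lower microglial sums was not tested.

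*Retnla*, encoding the secreted protein FIZZ1, varied by more within each genotype than between them. It had 188, 2822 and 1629 TPM in WT and 96.1, 415 and 1229 TPM in KI and was at 0 in all 6 untreated libraries. The lowest library was T13 in WT and T15 in KI, and the log2 difference of -1.38 (SE 1.06, adjusted p = 0.628) did not pass. *Chil3*, a chitinase-like protein, had 2.37, 22.2 and 7.13 TPM in WT and 3.13, 9.56 and 56.3 TPM in KI, with the lowest value of each genotype again in T13 and T15 and the highest in KI T32, and a log2 difference of 0.66 (adjusted p = 0.83). *Mrc1*, the mannose receptor, chosen after its values were seen, had 15.1, 40.4 and 46.4 TPM in WT and 20.8, 23.3 and 63.2 TPM in KI, with KI T32 again highest.

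**Figure D4:**
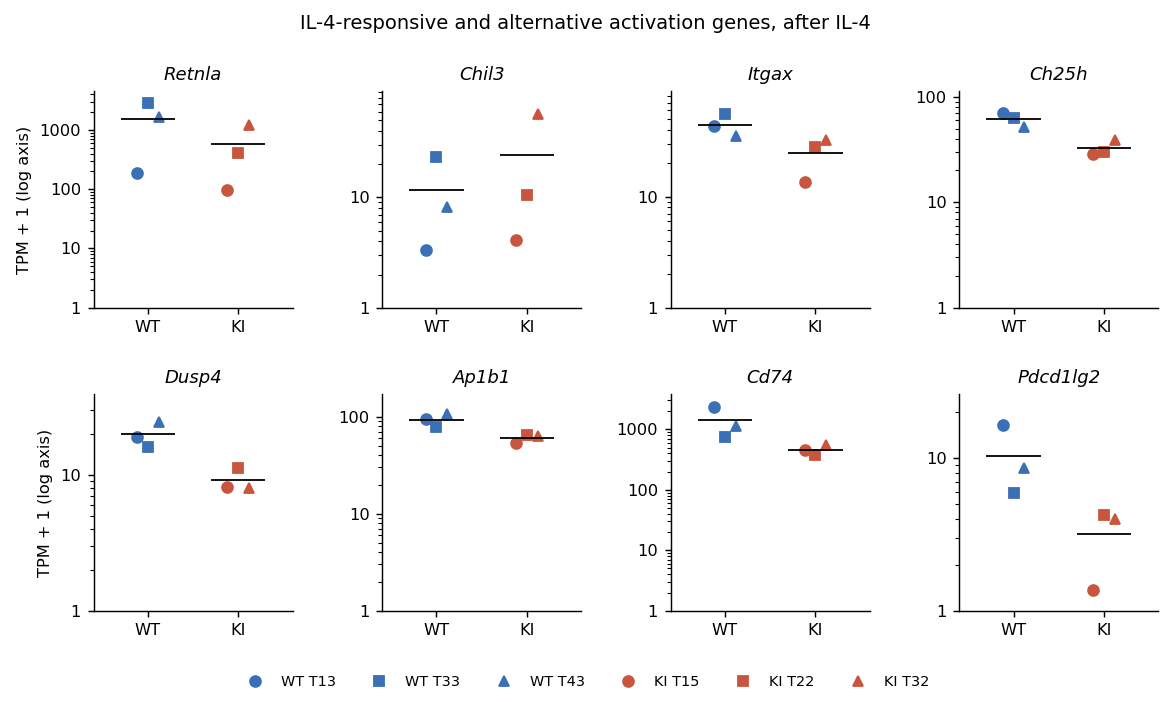
TPM + 1 (log axis) of 8 genes of the IL-4 response in the 6 IL-4-treated libraries, with WT in blue, KI in red, a symbol for each culture and a bar at the mean of 3 libraries. The genotypes overlap for *Retnla* and *Chil3* and are separate in the other panels. *Retnla* ranges from 188 to 2822 TPM within WT and from 96.1 to 1229 TPM within KI.

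Of 21 alternative activation markers tested, 19 had negative log2 differences and 6 did not overlap with KI lower (28.6% against 5.70%), with a median of -0.49. None passed. Among the 6 is *Ch25h*, which in WT was higher untreated, at 179, 254 and 258 TPM, than after IL-4. Its lower KI values are therefore not those of a gene that IL-4 raised. *Itgax*, the integrin CD11c, had 42, 54.6 and 34.1 TPM in WT and 12.6, 27 and 31.1 TPM in KI, a log2 difference of -0.92 (adjusted p = 0.293). *Pdcd1lg2*, the PD-1 ligand PD-L2, had 15.4, 4.89 and 7.64 TPM in WT and 0.36, 3.25 and 2.99 TPM in KI, a log2 difference of -1.73 (adjusted p = 0.268). The list's lowest difference, in *Mgl2*, rested on values under 18 TPM that overlapped. *Clec7a*, the beta-glucan receptor dectin-1, overlapped at 1857, 1004 and 1039 TPM in WT and 653, 1292 and 1032 TPM in KI, with WT T13 highest and KI T15 lowest.

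A co-expression list of the study, drawn from these same libraries, holds further genes of the IL-4 response, and their direction is therefore not independent evidence. *Ap1b1*, a subunit of the AP-1 clathrin adaptor, had 92.6, 77.3 and 105 TPM in WT and 52.3, 64 and 61.5 TPM in KI, a log2 difference of -0.62 (adjusted p = 0.204). *Cd74*, the invariant chain of MHC class II, had 2370.0, 742 and 1125 TPM in WT and 458, 374 and 549 TPM in KI, a log2 difference of -1.46 (adjusted p = 0.172). *Rnf19b*, a ubiquitin ligase, had 162, 162 and 185 TPM in WT and 108, 117 and 121 TPM in KI, a log2 difference of -0.55 (adjusted p = 0.178). In these 3 genes all KI libraries lay below all WT libraries, with the widest WT spread in *Cd74*. *Dusp4*, a MAP kinase phosphatase, also did not overlap, with 18, 15.2 and 23.5 TPM in WT and 7.15, 10.3 and 6.98 TPM in KI, a log2 difference of -1.12 (adjusted p = 0.194). *Gatm* -0.49 (adjusted p = 0.513), *Ptgs1* -0.34 (adjusted p = 0.528) and *Dhrs3* -0.29 (adjusted p = 0.56) overlapped.

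Most components of the IL-4 receptor pathway overlapped between the genotypes. *Stat6* had 69.8, 85.4 and 85.8 TPM in WT and 47.8, 53.4 and 72.1 TPM in KI and a log2 difference of -0.48 (SE 0.21, adjusted p = 0.348), with KI T32 inside the WT range. *Il4ra*, the cytokine-binding receptor chain, had 25.9, 24.4 and 20.9 TPM in WT and 23.4, 11.8 and 22.8 TPM in KI, and *Jak1* had 78.3, 57.4 and 71 TPM in WT and 59.2, 54 and 61.3 TPM in KI, both named after their values were seen. *Jak2* had 30.0, 14.2 and 21.2 TPM in WT and 22.6, 23.4 and 23 TPM in KI, a log2 difference of 0.13 (adjusted p = 0.902). In none of these 4 genes were the groups separate. Over 17 members tested the median was -0.37, with 2 lower and 2 higher without overlap (11.8% each, against 5.70% and 12.8%), or 3 and 1 under quantile normalization and 2 and 1 under median-ratio scaling. The lower ones, named after their values were seen, were the JAK-family kinase *Tyk2*, at 16.4, 16.2 and 13.9 TPM in WT and 9.64, 10.2 and 6.58 TPM in KI, and *Ptpn6*, the phosphatase SHP-1, at 268, 232 and 291 TPM in WT and 181, 163 and 159 TPM in KI. The higher ones were *Cish*, a STAT-induced inhibitor of cytokine signalling, at 4.88, 1.19 and 2.61 TPM in WT and 9.64, 4.91 and 6.75 TPM in KI, and *Irs2*, an adaptor of the insulin and IL-4 receptors, at 18.2, 15 and 16.9 TPM in WT and 24.9, 46.6 and 24.6 TPM in KI. *Socs3* had a log2 difference of 1.38 and *Socs2* one of -0.97, both with overlap. Of 12 transcription factors of the IL-4 response tested, 11 were negative, 1 did not overlap with KI lower (8.33% against 5.70%), or 2 under quantile normalization and under median-ratio scaling, and the median was -0.30.

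**Figure D5:**
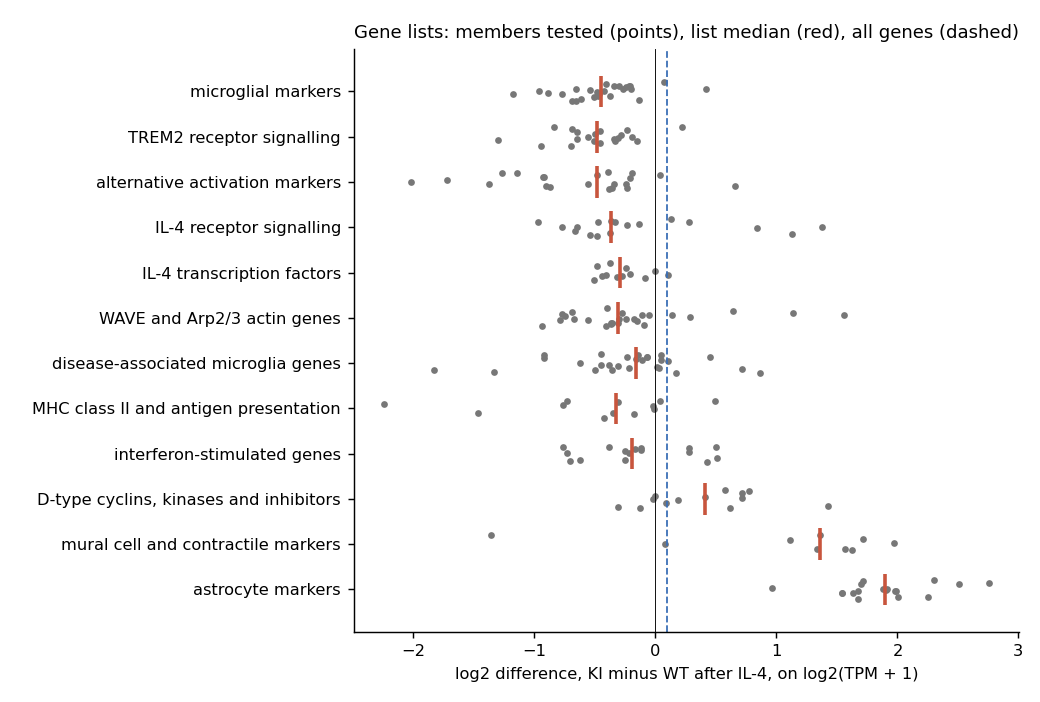
Log2 differences KI minus WT after IL-4, on log2(TPM + 1), of the tested members of 12 gene lists. Red bars are list medians and the dashed line is the median of all 11307 genes, 0.09; the TREM2 list has a median of -0.48 and the astrocyte markers one of 1.89.

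Actin regulators of the WAVE and Arp2/3 complexes, which drive the branched actin of phagocytosis and migration, lay below WT in most members. Of 26 tested, 21 were negative and 11 did not overlap with KI lower (42.3% against 5.70%), with a median of -0.31 and no call. *Nckap1l* (HEM1), the blood cell form of a WAVE subunit, had 126, 138 and 147 TPM in WT and 56.5, 81.6 and 107 TPM in KI, a log2 difference of -0.79 (adjusted p = 0.194). *Abi3*, another WAVE-associated protein, had 103, 87.2 and 73.3 TPM in WT and 37.3, 51.3 and 47.4 TPM in KI, a log2 difference of -0.94 (adjusted p = 0.148). *Nckap1*, the form used outside blood cells, lay higher in all 3 KI cultures than in WT, with 11.6, 5.51 and 7.02 TPM in WT and 47.9, 21.7 and 14 TPM in KI, a log2 difference of 1.55 (adjusted p = 0.204). The KI library with the highest *Nckap1* and the lowest *Nckap1l* was T15. Among 18 clathrin and adaptor genes tested, 5 did not overlap with KI lower (27.8% against 5.70%) and 1 with KI higher (5.56% against 12.8%), the latter being *Cltb*, a clathrin light chain, at 50.1, 39.8 and 37.9 TPM in WT and 139, 105 and 76.2 TPM in KI, a log2 difference of 1.27 (adjusted p = 0.121). *Picalm* had a log2 difference of -0.28 (adjusted p = 0.635) and *Bin1* -0.53 (adjusted p = 0.33).

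Genes of disease-associated microglia were divided. Of 27 tested, 18 were negative and 7 did not overlap with KI lower (25.9% against 5.70%), with a median of -0.16. *Cst7*, a cystatin that inhibits lysosomal proteases, had 1152, 486 and 519.8 TPM in WT and 190.1, 299 and 112 TPM in KI, a log2 difference of -1.83 (adjusted p = 0.143). *Ccl6* had 269.6, 83.2 and 129 TPM in WT and 47.1, 60.2 and 62 TPM in KI, a log2 difference of -1.33 (adjusted p = 0.186). *Cd52* had a log2 difference of -0.92 (adjusted p = 0.172) and *Cd68*, a lysosomal glycoprotein, -0.22 (adjusted p = 0.752). WT T13 was the highest library for *Cst7* and *Ccl6*. *Ch25h*, which makes 25-hydroxycholesterol, had 69.5, 62.5 and 50.7 TPM in WT and 27.8, 28.9 and 38 TPM in KI, a log2 difference of -0.93 (SE 0.22, adjusted p = 0.168), without overlap. Of the 21 lipid and cholesterol genes tested, *Ch25h* among them, 3 did not overlap with KI lower (14.3% against 5.70%) and 4 with KI higher (19.0% against 12.8%), and the higher ones included the sterol synthesis genes *Fdft1* 1.07 (adjusted p = 0.21), *Sqle* 1.01 (adjusted p = 0.24) and *Hmgcs1* 0.78 (adjusted p = 0.295), all 3 highest in KI T15.

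Of 17 inflammatory cytokines and chemokines tested, 11 were negative, with a median of -0.29, 4 did not overlap with KI lower (23.5% against 5.70%) and 2 with KI higher (11.8% against 12.8%). *Tnf* had 10.6, 11.8 and 14.3 TPM in WT and 9.05, 5.92 and 3.44 TPM in KI, a log2 difference of -0.96 (adjusted p = 0.347), and *Il1b* had 77.2, 18.7 and 59.9 TPM in WT and 29.5, 14.9 and 26.6 TPM in KI, a log2 difference of -0.94 (adjusted p = 0.453), with overlap. *Ccl4* had a log2 difference of -0.98 (adjusted p = 0.177), against 1.02 (adjusted p = 0.273) for *Ccl2* and 1.87 (adjusted p = 0.26) for *Cxcl10*, which was highest in KI T15. For antigen presentation 2 of 12 did not overlap with KI lower (16.7% against 5.70%), *Cd74* and the costimulatory receptor *Cd40*, which had 12.6, 12.7 and 14.1 TPM in WT and 4.66, 3.48 and 0.0451 TPM in KI, a log2 difference of -2.24 (adjusted p = 0.189). Interferon-stimulated genes had 2 of 16 without overlap on that side (12.5%), *Bst2* -0.62 (adjusted p = 0.168) and *Oas1a* -0.70 (adjusted p = 0.264). In the NF-kappaB list 13 of 17 were negative, with a median of -0.27, and 1 gene did not overlap on each side (5.88% each), *Nfkb2* -0.89 (adjusted p = 0.172) and *Traf1* 1.68 (adjusted p = 0.224). Under quantile normalization and under median-ratio scaling these counts were 5 lower and 1 higher.

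*Ccnd2*, the D-type cyclin that starts the cell cycle from G1, had 90.4, 101 and 115 TPM in WT and 257, 391 and 208 TPM in KI and a log2 difference of 1.43 (SE 0.23, adjusted p = 0.087), without overlap. It was the largest difference among 13 cyclin, kinase and inhibitor genes tested, of which 2 did not overlap with KI higher, 15.4% against 12.8% of all genes, and 0 with KI lower. Of 15 genes of cell division itself, 11 were negative, with a median of -0.45, and 1 lay lower and 1 higher without overlap (6.67% each, against 5.70% and 12.8%), or 3 and 1 under quantile normalization and median-ratio scaling. *App* had 131, 149 and 149.6 TPM in WT and 236, 179 and 189 TPM in KI, a log2 difference of 0.48 (adjusted p = 0.247), with all KI libraries above all WT libraries. The reference transcripts *Rps28* -0.21 (adjusted p = 0.703), *Arf1* 0.04 (adjusted p = 0.943) and *H3f3b* -0.01 (adjusted p = 0.989) overlapped between the genotypes.

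The remaining genes named by the study, or assayed by it by RT-qPCR, had the following log2 differences after IL-4. Without overlap and lower in KI were *Aif1*, which encodes IBA1, -0.69 (adjusted p = 0.191), *C1qa*, a complement subunit, -0.49 (adjusted p = 0.302), *Igf1*, a growth factor, -0.36 (adjusted p = 0.398), *Apoc2* -0.60 (adjusted p = 0.26), *Cd53*, a tetraspanin, -0.44 (adjusted p = 0.268), *Adam8*, a metalloprotease, -0.70 (adjusted p = 0.177), *Fxyd5* -0.68 (adjusted p = 0.192) and *Ap2m1*, a subunit of the AP-2 clathrin adaptor, -0.29 (adjusted p = 0.376). *Tgfb1* -0.27 (adjusted p = 0.515) and *Neurl1a* -0.16 (adjusted p = 0.924) overlapped. *Oas1b*, *Hspa1b* and *Alox5* were under the expression limit and were not tested. Together the 17 RT-qPCR genes had 8 without overlap on the lower side (47.1% against 5.70%) and a median of -0.48, and the 29 named genes tested had 16 (55.2%), a median of -0.50 and 1 call, *Cd72*. The 29 include genes that the study picked for their change in these same libraries, so their count is not independent evidence of a direction.

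Whether the genotype difference after IL-4 departed from that without it was tested as an interaction over all 12 libraries and 11204 genes. No gene passed limma's threshold (0 of 11204, 0%), with 357 genes at an unadjusted p under 0.05, and the fit with the culture as a fixed replicate block also called 0, with 551 genes. In the same 12-library fit the untreated KI and WT libraries differed for 23 lower genes (0.205%) and 79 higher genes (0.705%). These come from the same cultures as the IL-4 libraries and are not independent of them. Of the 23, 20 also did not overlap with KI lower after IL-4, and of the 79, 52 with KI higher, against 5.70% and 12.8% of the genes tested after IL-4.

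Side by side, *Trem2* differed by -1.56 untreated and -1.30 after IL-4 (log2 differences), and *Cd72* by -1.48 and -1.41. The genes with the smallest interaction p were *Gm25000*, *Zfp965* and *Mpi* in the negative direction and *Gm24853*, *Mthfsd* and *Ccdc51* in the positive. *Mpi*, a mannose phosphate isomerase, had 18.6, 22.4 and 19 TPM in WT and 20.7, 16.4 and 19.5 TPM in KI after IL-4 and 7.18, 6.08 and 6.3 TPM in WT and 22.4, 17.3 and 22.2 TPM in KI untreated, so that only the untreated libraries were separated. *Ap1b1* had an interaction of -0.66 (unadjusted p = 0.044 by limma, adjusted p = 1) and *Dusp4* -1.49 (unadjusted p = 0.066 by limma, adjusted p = 1). *Ch25h* differed by -2.52 untreated and -0.93 after IL-4, and *Ccnd2* by 2.29 and 1.43, with interactions of 1.59 and -0.86 (adjusted p = 1 and 1). *Ap2m1* lay below WT in all KI libraries after IL-4 and above WT in all of them untreated, at 303, 322 and 299 TPM in WT and 386, 331 and 369.7 TPM in KI, with an interaction of -0.52 (adjusted p = 1). None of these differences between conditions passed the threshold.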

How the data were processed

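RNA was sequenced from 12 libraries of primary mouse microglia, 3 per genotype and treatment, of which the 6 treated with IL-4 are described here. According to the labels and the study's methods, the authors removed adaptors using Trim Galore, estimated transcript abundance by Salmon against GRCm38 and collapsed it to genes with tximport. The values the authors deposited are TPM, corrected for transcript length and library size. TPM keeps no read counts, so the depth behind a value is unknown and precision is given by the spread between cultures. The study's own test used read counts, which were not analysed here.

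The table held 48623 genes, of which 48350 were matched by identifier to symbols and 48419 to GRCm38 coordinates. Where a symbol had several identifiers, the one with the highest mean was used. TPM was transformed as log2(TPM + 1), genes with a mean above 1.5 over the libraries fitted were kept, and limma 3.58.1 in R 4.3.3 was fitted with a variance trend, to 6 libraries for KI against WT and to 12 for the interaction. The pseudocount understates differences of low genes. The fits were checked on simulated data with known answers.

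The members, gene lists and named-gene rule were chosen with earlier results of these data known. Named genes are *Trem2*, the genes the study names or assayed by RT-qPCR, genes past the threshold, the 10 smallest p-values per direction among genes without overlap and with a mean above 3, up to 4 members of each list with the largest differences, and the 3 smallest interaction p-values per direction. Libraries of a culture are paired by the culture number in their names. The correlation of their deviations from the group means was between 0.08 and 0.38. Some genes that enter the lists and sums are not reported by name here. Promoter windows were read from a RefSeq table by symbol. Counts without KI T15 were added after seeing the data.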

Additional observations from a re-analysis of the deposited data

How the results depend on the processing

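The numbers of genes past the threshold, 2 lower and 3 higher in KI after IL-4, changed under most alternatives. They were 0 and 1 with no expression filter (28163 genes tested), with the astrocyte score and with the microglial score as a covariate, 3 and 8 with a filter at 3, 3 and 5 without the variance trend, and 1 and 6 without cultures T13 and T15. In the fit of all 12 libraries they were 1 and 1, both without and with the culture as a random replicate block. Leaving out 1 library gave 0 to 18 lower and 1 to 67 higher genes. The counts were 18 and 67 without KI T32, 0 and 1 without KI T22, WT T33 or WT T43, and 0 and 4 without WT T13. Without the variance trend, 2 of the 5 genes, *Cavin3* and *Gm11966*, were called again, while *Cd72*, *Dok2* and *Fmod* were not. Except where genes or libraries are removed by construction, the cause was not tested. Genes with an interaction numbered 0 in the main analysis and 4 with no filter, and 0 under the other alternatives, the fixed replicate block and each culture left out included. The random replicate block removed the calls of *Dok2*, *Cavin3*, *Fmod* and *Gm11966* (adjusted p = 0.314, 0.0946, 0.12 and 0.233) and added *Tm4sf1*, and the fit of 12 libraries without the block did the same. Among 2274 values of 135 named genes under alternatives, none changed sign past the threshold, 70 changed sign without passing, 43 lost and 21 gained the call. Of 250 list medians, 20 moved by more than the spread between replicates. Unknown depth limits values of a few TPM.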

Other observations

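Cultures T13 and T15 had the highest astrocyte marker sum and the lowest *Retnla* of their genotype after IL-4, and their sample names spell out the treatment where those of the other 4 cultures use a number. WT T13 and KI T32 had *Xist* at 5.47 and 6.36 TPM and *Ddx3y* at 0, while the other 4 libraries had *Ddx3y* between 23.3 and 36.8 TPM, so that each genotype held 1 culture with Y-linked transcripts at or near 0 (at most 0.429 TPM in either).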
